A study of Rattus with 6 samples.

Results

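The 48 genes described here copy the genome and prepare the cell for doing so: the cyclins and E2F factors of the G1/S transition, the proteins that license and fire replication origins, the polymerases with their clamp and clamp loader, and the enzymes that supply nucleotides and package new DNA. They were taken by name from the protein-coding rows of the deposited table, where each of the 48 names matched 1 row, out of 54012 genes in all (22058 of them protein coding). The libraries came from primary cultures labelled as aortic vascular smooth muscle cells, and every culture received Ang II (angiotensin II, the hormone by which the renin system raises blood pressure). Of the 6 libraries, 3 are si-NC (an siRNA control, genotype label WT) and 3 are si-CDCP1 (siRNA against CDCP1, genotype label CDCP1 knockdown); Ang II followed the knockdown, per the labels. The cells were kept in serum-supplemented medium. Whether replicates came from separate animals or isolations is not stated, so that the spread between them may be technical. The organism label is rat while the table lists mouse genes on mm10, so gene names and positions below are those of mouse.

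DNA replication is prepared in G1, when the origin recognition complex, CDC6 and CDT1 load the MCM2 to MCM7 ring onto origins. Cyclin D and cyclin E kinases release E2F factors from the retinoblastoma protein, and E2F factors switch on most of the genes in this list. The kinase pair CDC7 and DBF4 and cyclin-dependent kinases then turn loaded rings into active helicases by recruiting CDC45 and the GINS complex, after which polymerases copy both strands. In the vessel wall, smooth muscle cells that leave their contractile state can enter this program and contribute to thickening of the inner wall.

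Reads assigned to genes of the table numbered 16050517 to 19771638 per library; they could be read back from the FPKM values (fragments per kilobase of gene length scaled to a library total). CDCP1 itself could not serve as a check of the labels, since 0 to 5 reads per library fell in Cdcp1 in either group. Of 12 contractile smooth muscle markers, 5 averaged at least 1 FPKM (Acta2, Smtn, Tpm1, Vcl and Cald1), while Tagln, Cnn1 and Myh11 were each under 0.2 FPKM in both groups. Of 5 fibroblast markers, Col1a1 had means of 279 (si-NC) and 278 FPKM (si-CDCP1), Pdgfra of 10.4 and 8.69 FPKM without overlap of the groups, and Dcn of 1.27 and 1.26 FPKM, while Lum and Dpt averaged under 1 FPKM. Of 5 macrophage markers, Cd14 had means of 11.9 and 12.8 FPKM and Cd68 of 1.27 and 0.822 FPKM, for Cd68 without overlap of the groups. Csf1r and Mrc1 were under 0.2 FPKM in both groups, and Adgre1 was listed at 0. Of 4 pericyte markers, Cspg4 had a mean of 1.47 FPKM in both groups, while Rgs5, Kcnj8 and Abcc9 were under 0.2 FPKM. None of the endothelial, blood cell or epithelial markers in the table averaged 1 FPKM. The library si-CDCP1 replicate 3 stood apart: its correlation with the others over all tested genes, on log2(FPKM + 1), was 0.979 to 0.983, where the other 5 correlated with each other at 0.988 to 0.991. Differences that it moved are therefore also given without it.

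All 48 genes were expressed and entered the test. Their means over the 6 libraries ran from 2.69 FPKM (Fen1) to 138 FPKM (Pcna) with a median of 22.7 FPKM, against a median of 8.99 FPKM over all 12080 tested genes. Of the 48, 10 averaged at least 50 FPKM, 33 lay between 10 and 50 FPKM and 5 were below 10 FPKM. The fewest reads behind a value were 75, for Fen1 in 1 library, and the most were 13489.

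Comparing si-CDCP1 with si-NC, the replication genes lay on both sides of 0. The median log2 difference of the 48 was -0.03, against 0.01 over all tested genes, with 31 negative and 17 positive values. Single differences ran from -0.35 (Cdc7) to 0.35 (Orc2), at most 1.28-fold on the log2(FPKM + 1) scale, and 39 of the 48 lay within 0.2 of 0 (81.2%, against 82.2% of all tested genes). In limma with Benjamini-Hochberg (BH) adjustment over all tested genes, 0 of the 48 passed an adjusted p of 0.05, and the background was also 0 (0%). At an unadjusted p under 0.05, 5 were lower (Cdc7, Pole, E2f2, Lig1 and Ccnd1; 10.4% of the 48, against 5.31% of all tested genes) and 3 were higher (Ccne1, Orc2 and Mcm2; 6.25%, against 8.94%). Over all tested genes that was 642 lower and 1080 higher, a split that depended on scaling: 798 and 790 with quantile normalisation, and 1301 and 537 with equal FPKM sums. The 3 si-CDCP1 libraries lay entirely below the si-NC libraries for 7 genes and entirely above them for 7 others (14.6% in each direction), where the same held for 10.6% and 14.4% of all tested genes.

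**Figure D1:**
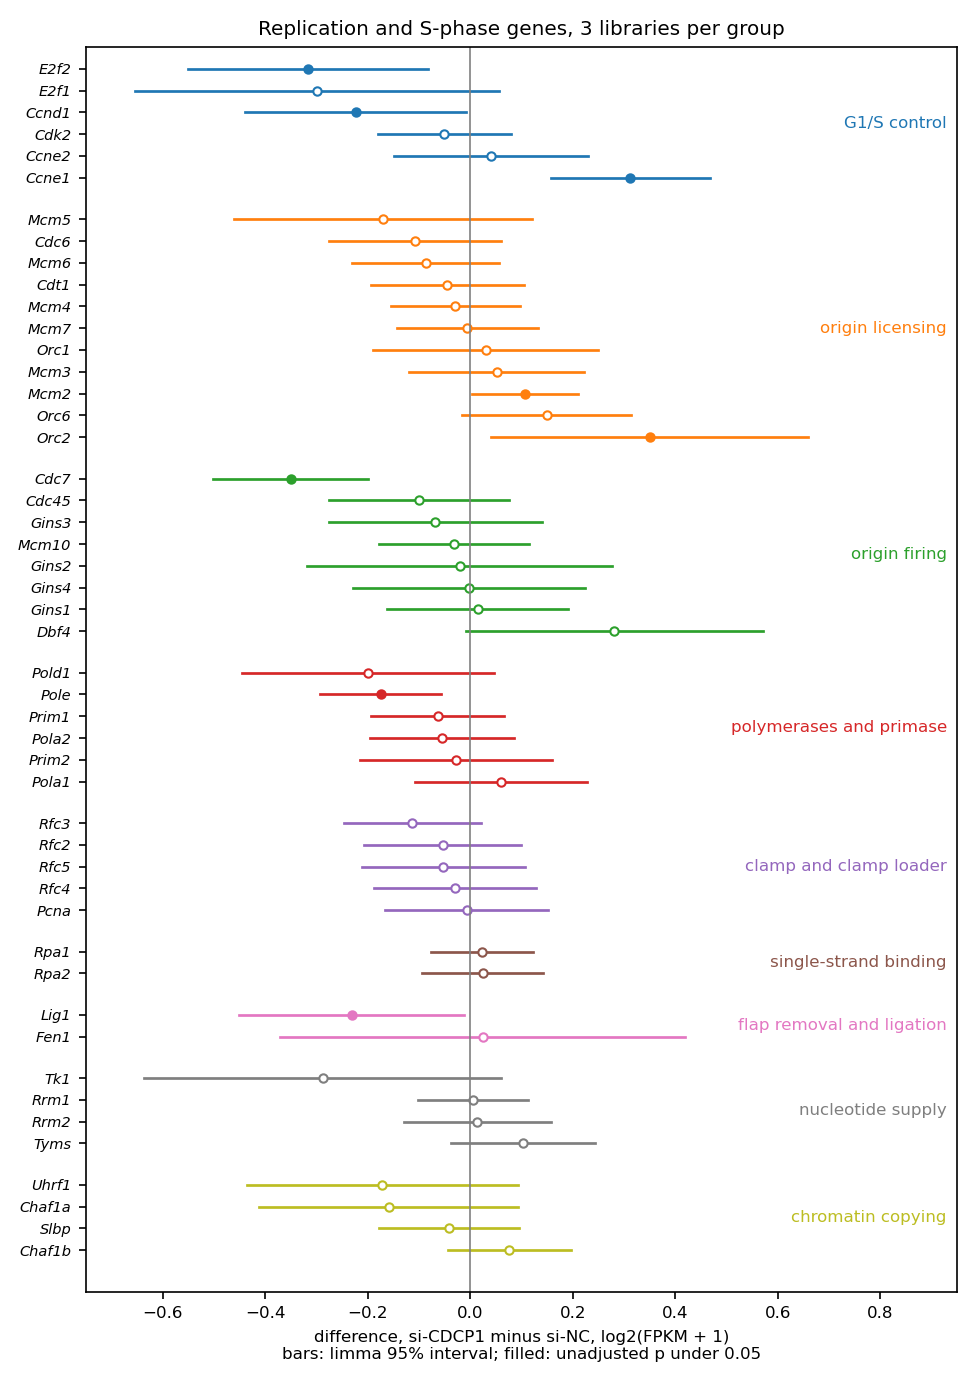
Difference between si-CDCP1 and si-NC (x axis, log2(FPKM + 1)) for each of the 48 genes, grouped by role, with the limma 95% interval as a bar and a filled point at an unadjusted p under 0.05. Values run from -0.35 for Cdc7 to 0.35 for Orc2, and 40 of the 48 points are open.

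Differences of the 6 G1/S regulators lay on both sides of 0, with a median of -0.14, or -0.06 without si-CDCP1 replicate 3. Ccne1 encodes cyclin E1, the partner of CDK2 at S-phase entry (ENSMUSG00000002068). It was at 9.46, 9.61 and 9.24 FPKM in si-NC and at 11.1, 11.8 and 13.0 FPKM in si-CDCP1. Every si-CDCP1 value lay above every si-NC value, a log2 difference of 0.31 (SE 0.066, 95% interval 0.16 to 0.47, limma BH-adjusted p = 0.267). Ccne2, which encodes the related cyclin E2, was at 11.9, 9.98 and 11.8 FPKM with si-NC, against 12.0, 11.9 and 10.7 FPKM in si-CDCP1. Its groups overlapped, with a log2 difference of 0.04 (95% interval -0.15 to 0.23). Ccnd1, the gene of cyclin D1, which links growth factor signals to the cell cycle, was at 27.5, 27.7 and 25.2 FPKM against 25.3, 23.6 and 19.9 FPKM. The highest si-CDCP1 value was just above the lowest si-NC value, and the log2 difference was -0.22 (SE 0.091, limma BH-adjusted p = 0.344), or -0.13 without si-CDCP1 replicate 3.

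The activator factors E2f1 and E2f2 were lower in every si-CDCP1 library than in any si-NC library. E2f2 was at 4.69, 4.55 and 4.80 FPKM in si-NC and at 3.82, 3.98 and 2.94 FPKM in si-CDCP1, a log2 difference of -0.32 (SE 0.099, limma BH-adjusted p = 0.296). E2f1 was at 27.1, 26.99 and 28.4 FPKM against 26.2, 24.6 and 16.8 FPKM, a log2 difference of -0.30 (SE 0.15, limma BH-adjusted p = 0.397). For E2f1 most of the distance came from si-CDCP1 replicate 3, and without it the difference was -0.11; that of E2f2 was then -0.21. Cdk2 differed by -0.05 (95% interval -0.18 to 0.08). Ccnd1 overlaps the gene Oraov1 on the opposite strand (2.59 FPKM), and Ccne2 overlaps Ints8 there (8.88 FPKM) over 5622 bases. The strand setting of the counting is not given in the sources used here, so that reads in the shared stretch of each pair cannot be told apart. Overlaps were taken between whole gene spans, and the share of exons in them was not determined. Of the 48 genes, 13 overlap a row that averaged at least 1 FPKM.

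Among the origin licensing genes, the 6 MCM genes were abundant and close to each other. In si-NC their means ran from 84.4 FPKM (Mcm4) to 111 FPKM (Mcm3), a 1.31-fold span. Mcm2 was at 96.5, 96.9 and 98.1 FPKM in si-NC and at 107.7, 105.3 and 101.4 FPKM in si-CDCP1. The groups did not overlap, and the log2 difference was 0.11 (SE 0.044, limma BH-adjusted p = 0.345), which became -0.01 under quantile normalisation. Mcm3 was at 112.8, 108.8 and 110.2 FPKM against 120.0, 122.4 and 102.7 FPKM: 2 si-CDCP1 libraries were above and replicate 3 below all si-NC values. Its log2 difference of 0.05 (limma BH-adjusted p = 0.754) became 0.13 without replicate 3. It turned to -0.05 under quantile normalisation and to -0.002 with equal FPKM sums. Mcm5 was at 100.52, 100.3 and 96.8 FPKM against 99.97, 96.2 and 71.0 FPKM, where again replicate 3 alone was low, and the log2 difference of -0.17 became -0.02 without it.

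Mcm4, Mcm6 and Mcm7 had overlapping groups. Mcm4 was at 87.9, 80.7 and 84.6 FPKM in si-NC and 82.5, 85.9 and 79.8 FPKM in si-CDCP1. Mcm6 was at 87.0, 81.6 and 84.8 FPKM against 83.6, 81.4 and 73.7 FPKM, and Mcm7 at 95.8, 96.3 and 93.0 FPKM against 98.6, 98.1 and 87.7 FPKM. Their 95% intervals on the log2 scale were -0.15 to 0.10, -0.23 to 0.06 and -0.14 to 0.13.

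The loaders of the ring were also spread over both sides. Orc2, a subunit of the origin recognition complex, was at 15.7, 15.3 and 17.4 FPKM in si-NC and at 17.5, 19.9 and 25.8 FPKM in si-CDCP1. The lowest si-CDCP1 value exceeded the highest si-NC value by little, and the log2 difference of 0.35 (SE 0.13, limma BH-adjusted p = 0.323) went to 0.20 without replicate 3. Orc2 overlaps Nif3l1 on the opposite strand over 19046 bases of its span (6.60 FPKM), with the same limit on reads as for Ccnd1. Orc6 had a log2 difference of 0.15 (95% interval -0.02 to 0.31) and Orc1 one of 0.03 (95% interval -0.19 to 0.25). Cdc6, an ATPase that helps to load the ring, was at 14.3, 14.1 and 14.2 FPKM against 13.5, 14.1 and 11.8 FPKM. Cdt1, its partner in loading, was at 99.7, 96.04 and 91.8 FPKM against 96.7, 96.4 and 85.8 FPKM. For both genes the groups overlapped and replicate 3 held the lowest value.

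The origin firing kinase gave the smallest adjusted p of the 48 genes. Cdc7, the catalytic subunit that phosphorylates the MCM ring (ENSMUSG00000029283, mm10 chromosome 5, 106964322 to 106984432, plus strand), was at 11.9, 10.6 and 11.3 FPKM in si-NC. In si-CDCP1 it was at 8.49, 9.15 and 8.23 FPKM. All 3 si-CDCP1 values lay below all si-NC values, with means of 11.3 ± 0.622 and 8.62 ± 0.476 FPKM (SD, n = 3 each). The log2 difference was -0.35 (SE 0.064, 95% interval -0.50 to -0.20), and the limma BH-adjusted p was 0.238, short of the threshold. Without replicate 3 the difference was -0.32, so it did not rest on that library.

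Dbf4, the regulatory subunit without which CDC7 is inactive, lay on the other side. It was at 12.0, 11.5 and 12.1 FPKM in si-NC and at 12.5, 13.8 and 18.1 FPKM in si-CDCP1. The groups did not overlap, but replicate 3 was far above the other libraries; the log2 difference was 0.28 (SE 0.12, limma BH-adjusted p = 0.353), and 0.14 without it. The ratio of Dbf4 to Cdc7 in FPKM, a comparison chosen after the values were seen and given without a test, was 1.011, 1.079 and 1.077 in si-NC and 1.47, 1.51 and 2.21 in si-CDCP1. The subunits were thus near even per gene length in si-NC, and Dbf4 exceeded Cdc7 in each si-CDCP1 library. The same kind of ratio for Ccne1 over Ccnd1 was 0.344, 0.347 and 0.366 against 0.439, 0.501 and 0.656.

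The helicase activators showed no such separation. Cdc45 averaged 29.7 ± 1.61 FPKM with si-NC, against 27.6 ± 2.33 FPKM with si-CDCP1 (SD, n = 3 each), and Mcm10, which helps the helicase to start moving, 15.4 ± 0.767 against 15.1 ± 0.822 FPKM. The 4 GINS subunits had log2 differences between -0.07 (Gins3) and 0.01 (Gins1). Without replicate 3 all 4 were positive, 3 of them with a turned sign, from 0.02 (Gins3) to 0.13 (Gins2). They were uneven in level, from 10.8 FPKM (Gins3) to 48.03 FPKM (Gins4) in si-NC, a 4.45-fold span. Gins2 and Gins4 were highest in si-CDCP1 replicate 1 (17.8 and 55.4 FPKM) and lowest in replicate 3 (12.3 and 42.0 FPKM), so that their si-CDCP1 spread bracketed si-NC.

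**Figure D2:**
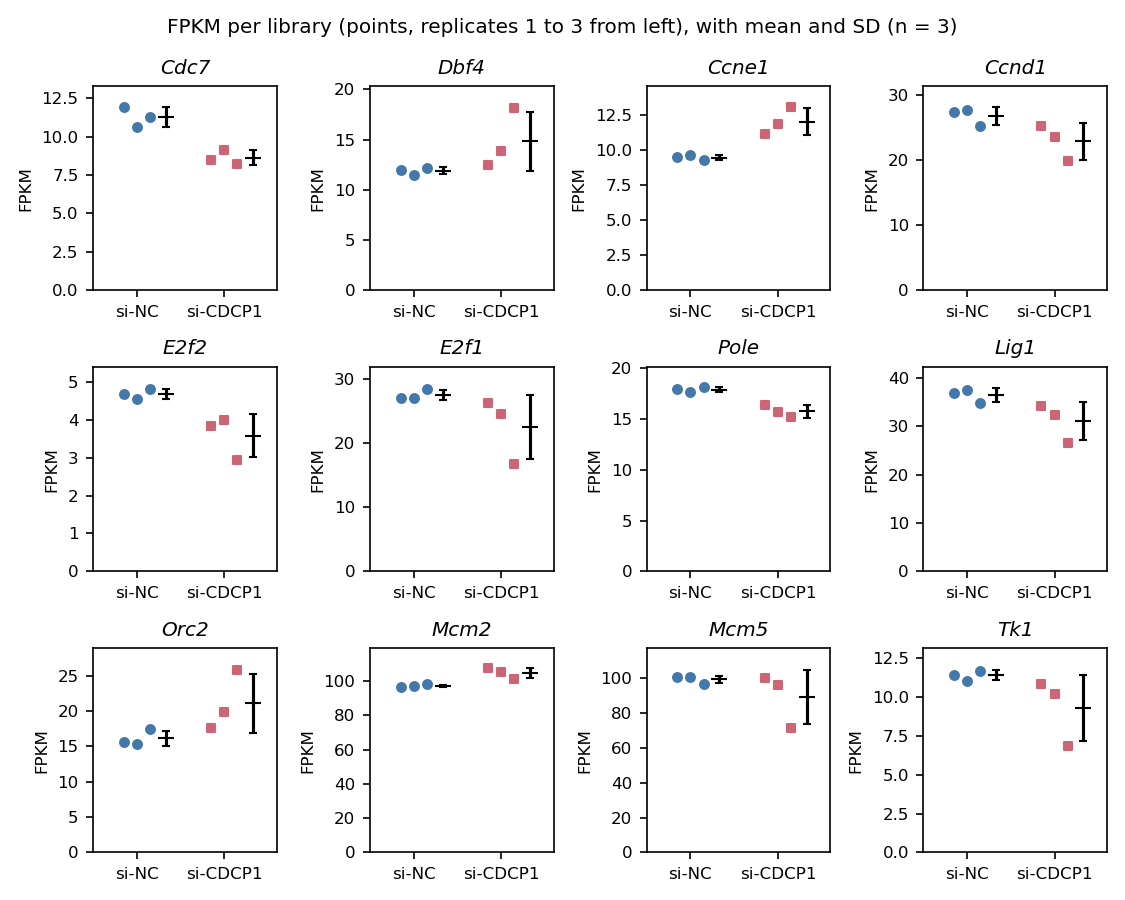
FPKM in each library (y axis, from 0) for 12 of the genes, with replicates 1 to 3 from left to right in each group and the mean with SD beside them. Cdc7 lay at 8.23 to 9.15 FPKM in si-CDCP1 against 10.6 to 11.9 FPKM in si-NC, while for E2f1, Mcm5 and Tk1 the rightmost si-CDCP1 point (replicate 3) was well below the rest.

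Of the polymerase genes, Pole had the smallest p. Pole encodes the catalytic subunit of polymerase epsilon, which copies the leading strand. It was at 17.9, 17.6 and 18.1 FPKM in si-NC and at 16.4, 15.6 and 15.1 FPKM in si-CDCP1. The groups did not overlap, and the log2 difference was -0.17 (SE 0.050, limma BH-adjusted p = 0.281), or -0.15 without replicate 3. An antisense row, Gm15792 (3.06 FPKM), overlaps Pole over 1998 bases. Pold1, the catalytic subunit of polymerase delta on the lagging strand, was at 21.1, 22.8 and 20.7 FPKM against 20.7, 19.9 and 15.6 FPKM. Its groups overlapped in the tightest way, 1 si-CDCP1 library being level with the lowest si-NC library, and its difference of -0.20 went to -0.08 without replicate 3. The priming enzymes Pola1, Pola2, Prim1 and Prim2 had log2 differences between -0.06 and 0.06, all with overlapping groups.

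The clamp and its loader varied little between groups. Pcna, the sliding clamp that holds polymerases on DNA, was at 140.5, 135.8 and 139.6 FPKM in si-NC and at 147.0, 142.7 and 125.2 FPKM in si-CDCP1. The values in si-CDCP1 lay on both sides of si-NC (log2 difference -0.01, 95% interval -0.17 to 0.15). A row named Pcna-ps2 averaged 103 FPKM, so that reads could be split between near-identical copies and the level of Pcna is uncertain. All 4 RFC genes had small negative differences, from -0.11 (Rfc3) to -0.03 (Rfc4), and stayed negative under each scaling tried. Rfc2 turned to 0.002 without si-CDCP1 replicate 3, and Rfc4 to 0.002 or 0.005 without si-NC replicate 1 or 3. Rfc3 was at 15.7, 14.5 and 16.2 FPKM against 14.3, 14.5 and 14.0 FPKM, with the highest si-CDCP1 value just below the lowest si-NC value. Rpa1 and Rpa2, which coat single-stranded DNA, differed by 0.02 each (95% intervals -0.08 to 0.12 and -0.09 to 0.14), and both signs turned under quantile normalisation and equal FPKM sums. Rpa1 was at 51.6, 51.6 and 50.7 FPKM in si-NC and at 53.3, 51.4 and 51.6 FPKM in si-CDCP1.

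Lig1, the ligase that seals lagging-strand fragments, was at 37.0, 37.6 and 34.9 FPKM in si-NC and at 34.2, 32.5 and 26.6 FPKM in si-CDCP1. The groups did not overlap and the log2 difference was -0.23 (SE 0.093, limma BH-adjusted p = 0.342), or -0.13 without replicate 3. Fen1, the nuclease that trims the flaps before ligation, was the lowest of the 48, with means of 2.65 ± 0.561 (si-NC) and 2.73 ± 0.696 FPKM (si-CDCP1; SD, n = 3 each). Its single libraries ran from 1.98 to 3.36 FPKM, both in si-CDCP1. On the opposite strand Fen1 overlaps Tmem258 (22.6 FPKM) over 156 bases and Gm10143 (0.353 FPKM) over 3253 bases. Its level carries the same limit on reads as that of Ccnd1.

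Of the nucleotide enzymes, thymidine kinase stood apart from ribonucleotide reductase. Tk1 was at 11.4, 11.04 and 11.7 FPKM in si-NC and at 10.9, 10.2 and 6.87 FPKM in si-CDCP1. No si-CDCP1 value reached si-NC, although replicate 3 carried most of the log2 difference of -0.29 (SE 0.15, limma BH-adjusted p = 0.399), which was -0.10 without it. Tyms, which makes thymidylate, was at 14.3, 13.05 and 14.6 FPKM against 14.98, 14.6 and 15.7 FPKM, a log2 difference of 0.10 with groups that barely separated. Rrm2, the regulated subunit of ribonucleotide reductase, was at 24.1, 22.3 and 22.7 FPKM against 22.03, 24.9 and 22.96 FPKM. Its large partner Rrm1 averaged 27.8 ± 0.487 and 27.9 ± 0.763 FPKM (SD, n = 3 each). Both reductase genes had 95% intervals within 0.2 of 0 on the log2 scale.

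Of the chromatin genes, Uhrf1 and Chaf1a repeated the pattern of 1 low library. Uhrf1, which directs maintenance methylation to newly copied DNA, was at 81.6, 78.5 and 83.9 FPKM in si-NC and 79.9, 78.9 and 59.5 FPKM in si-CDCP1. Chaf1a, the large subunit of the histone chaperone CAF-1, was at 45.3, 47.6 and 46.6 FPKM against 44.0, 46.9 and 34.6 FPKM. Their log2 differences of -0.17 and -0.16 both became -0.03 without replicate 3. Chaf1b, the other CAF-1 subunit, lay on the other side: at 10.6, 10.6 and 10.8 FPKM against 11.6, 11.5 and 10.8 FPKM, its groups just separated. Slbp, which binds histone messages, differed by -0.04 (95% interval -0.18 to 0.09).

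The low values of si-CDCP1 replicate 3 ran through most of the list. For 31 of the 48 genes (64.6%) this library held the lowest of the 6 values, against 30.0% of all tested genes, and for 5 it held the highest, against 34.0%. The median of the 48 genes, relative to the si-NC mean, was 0.01 in si-CDCP1 replicates 1 and 2 and -0.14 in replicate 3 (log2). Against the mean of the other 5 libraries, 16 genes (33.3%, against 19.4% of all tested genes) were more than 0.2 lower there on the log2 scale, led by E2f1 (-0.63), Tk1 (-0.61), Mcm5 (-0.47), E2f2 (-0.44) and Uhrf1 (-0.43). Dbf4 (0.52), Orc2 (0.56) and Ccne1 (0.32) were the 3 that were more than 0.2 higher (6.25%, against 21.0% of all tested genes). As a list, the 41 other replication genes tested, described further on, did not share this pattern. Replicate 3 held the lowest value for 14 of them and the highest for 14 (34.1% each). Their median there was 0.04 relative to the si-NC mean. Against the mean of the other 5 libraries, single genes of that list lay on both sides, such as Clspn (-0.55), Gmnn (-0.41), Asf1a (0.40) and Rrm2b (0.41). The difference between the lists was not tested. The genes named above were picked out by that library, so their values describe it and are no test. The same library had 64.2 FPKM of Acta2, against 34.4 to 42.0 FPKM in the other 5. Smtn, Tpm1 and Cald1 were also highest there, while Vcl was lowest, at 16.2 FPKM against 17.8 to 20.8 FPKM. Tagln, Lmod1, Synpo2 and Mylk, which averaged under 1 FPKM, were lowest there too. The summed contractile markers ran from 142.6 to 148.4 FPKM in si-NC and from 147.6 to 191.7 FPKM in si-CDCP1. The part that these markers had in the low values of the replication genes was not tested. In bulk RNA, fewer cells in S phase and less RNA of these genes per cell cannot be told apart.

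**Figure D3:**
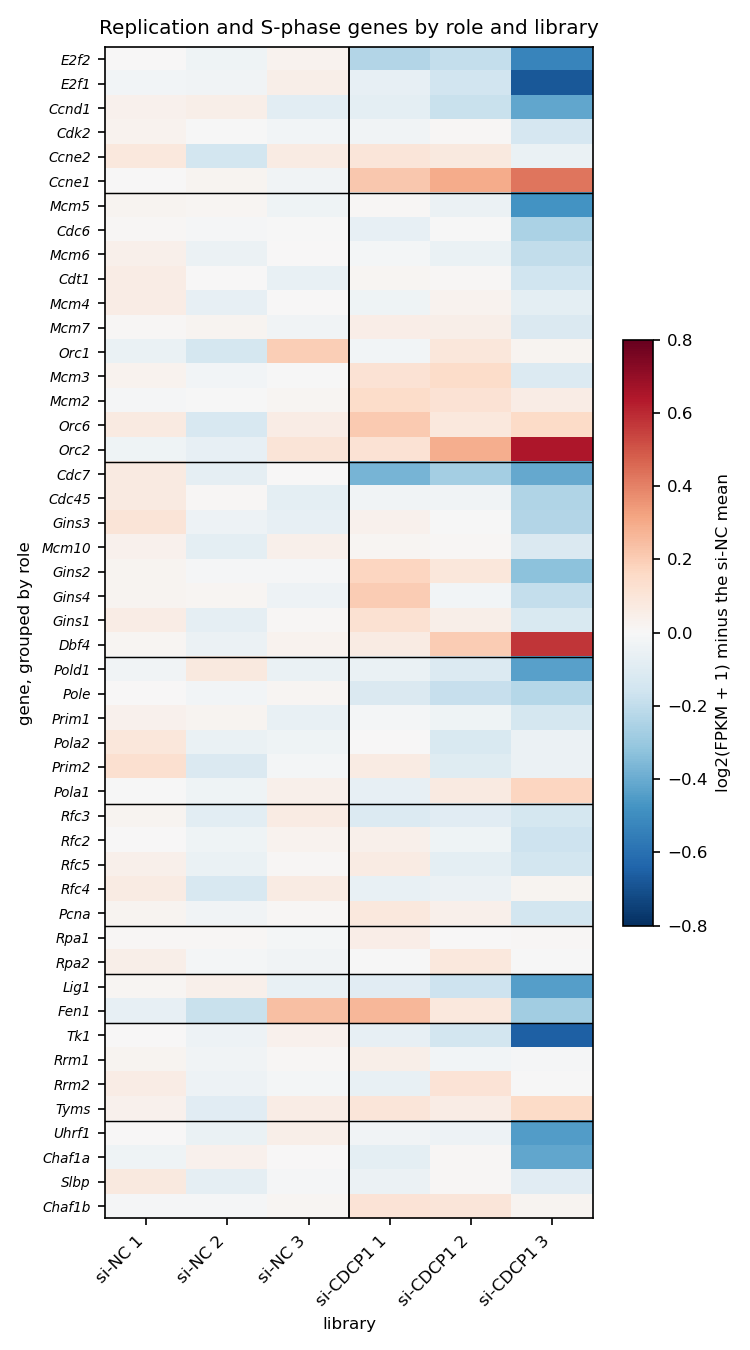
Each of the 48 genes (rows, grouped by role) in each library (columns), as log2(FPKM + 1) minus the si-NC mean, with blue for lower and red for higher values. The si-CDCP1 replicate 3 column, whose median is -0.14, is blue for most genes, while Cdc7 is blue and Ccne1 red in all 3 si-CDCP1 columns.

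Mitosis genes did not share the low values in that library. Of 22 such genes (Aurka, Ccnb1, Plk1 and others from a list of kinases, cyclins and spindle proteins), replicate 3 held the highest value for 15 (68.2%) and the lowest for 1. Aurka, a spindle pole kinase, reached 29.8 FPKM in replicate 3, against 18.3 ± 1.36 FPKM over the remaining 5 (SD, n = 5), and Ccnb1, the mitotic cyclin B1, at 38.4 against 25.0 ± 1.22 FPKM. The median of the mitosis list relative to the si-NC mean was 0.32 in replicate 3, with -0.004 in replicate 1 and 0.03 in replicate 2. Of the 22, 1 was higher at an unadjusted p under 0.05 (4.55%, against 8.94% of all tested genes) and 0 were lower (against 5.31%). The higher gene was Bub1b, a checkpoint kinase, with a log2 difference of 0.18. The groups did not overlap for 4 genes that were higher and 0 that were lower (18.2% and 0%, against 14.4% and 10.6%). With BH adjustment limma called 0.

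**Figure D4:**
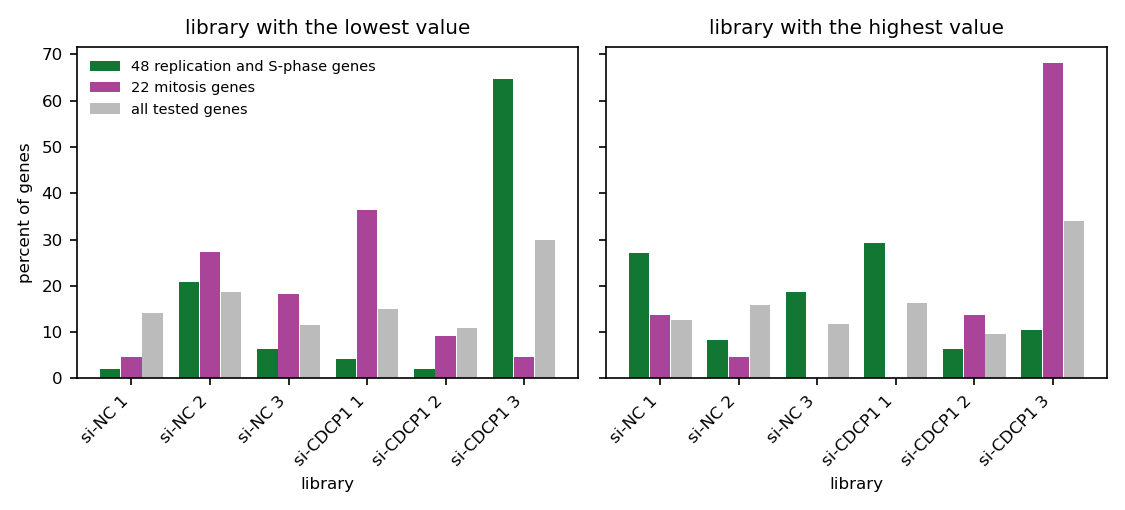
Share of genes (y axis, percent) for which each library (x axis) held the lowest value (left) or the highest value (right), for the 48 replication and S-phase genes, the 22 mitosis genes and all 12080 tested genes. The si-CDCP1 replicate 3 library held the lowest value of 64.6% of the 48 genes and the highest value of 68.2% of the mitosis genes, against 30.0% and 34.0% of all tested genes.

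With replicate 3 left out, the balance of the 48 genes was even, with 23 negative and 25 positive differences and a median of 0.00. Limma on log2(FPKM + 1) of those 5 libraries called 0 of the 48 (smallest BH-adjusted p = 0.0973) and 0 of all 12107 genes tested; 4 of the 48 were lower and 6 higher at an unadjusted p under 0.05. In limma voom on the recovered reads of the 5 other libraries, Cdc7 (BH-adjusted p = 0.0105) and Pole (BH-adjusted p = 0.0493) fell and Mcm2 (BH-adjusted p = 0.0261) and Mcm3 (BH-adjusted p = 0.0485) rose. That made 2 of 48 in each direction, where 1.06% of all genes in that fit were called lower and 2.4% higher. Replicate 3 was left out because its values stood apart, and voom was run with no other library left out. The adjusted p-values of that fit depend on this choice. With library weights in limma on all 6 libraries, in which si-CDCP1 replicates 1, 2 and 3 had weights of 0.600, 5.11 and 0.165, Cdc7 and Pole fell and Ccne1, Mcm2 and Orc2 rose, with backgrounds of 2.54% lower and 4.62% higher. In that fit 87.0% of the si-CDCP1 weight lay on replicate 2. Voom on all 6 libraries called 0 of the 48. Over the 21 alternatives the adjusted p of Cdc7 ranged from 0.0105 to 0.643, while its log2 difference stayed between -0.40 and -0.29.

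Other replication genes outside the 48 also lay on both sides. Of 42 listed, 41 were tested (Pold4 averaged under 1 FPKM), of which 4 were lower and 4 higher at an unadjusted p under 0.05 (9.76% each, against 5.31% and 8.94% of all tested genes), and limma called 0 with BH adjustment. The groups did not overlap for 12 genes that were lower and 4 that were higher (29.3% and 9.76%, against 10.6% and 14.4%). Dut, which removes dUTP from the nucleotide pool, averaged 57.1 ± 2.13 (si-NC) and 65.4 ± 2.45 FPKM (si-CDCP1; SD, n = 3 each). Of the accessory polymerase subunits, Pole4 and Pold2 lay above si-NC without overlap, with Pole4 at 35.1 ± 1.16 against 40.4 ± 2.12 FPKM and Pold2 at 46.2 ± 0.794 against 51.0 ± 1.51 FPKM. Pole2, Pole3 and Pold3 overlapped, with log2 differences of -0.06, 0.05 and -0.08. Wdhd1, a helicase-polymerase linker, lay below, at 12.1 ± 0.524 against 10.7 ± 0.235 FPKM.

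Of 25 other G1/S regulators 23 were tested, and 0 were called by limma with BH adjustment. At an unadjusted p under 0.05, 2 were lower and 2 higher (8.70% each, against 5.31% and 8.94% of all tested genes). The groups did not overlap for 4 genes in each direction (17.4% each, against 10.6% lower and 14.4% higher). Cdk4, the partner of cyclin D, was at 89.4, 94.5 and 94.2 FPKM in si-NC and at 106.7, 106.5 and 112.4 FPKM in si-CDCP1, with no overlap. Among the D cyclins, Ccnd2 averaged 71.6 ± 2.11 against 80.2 ± 7.02 FPKM (log2 difference 0.16, no overlap) and Ccnd3 10.1 ± 0.267 against 9.34 ± 0.891 FPKM, beside the lower Ccnd1. These D cyclins and the overlapping polymerase subunits were named after their values were seen. Cdkn2a, an inhibitor locus that opposes CDK4, averaged 70.1 ± 1.74 against 84.6 ± 7.00 FPKM (SD, n = 3 each). The repressor factors E2f7 and E2f8 averaged 4.62 ± 0.148 against 3.88 ± 0.139 FPKM and 4.89 ± 0.374 against 4.07 ± 0.143 FPKM. The inhibitors Cdkn1a and Cdkn1b and the pocket protein gene Rb1 had log2 differences of -0.04, 0.08 and 0.03, none past an unadjusted p of 0.05. Skp2 was listed at 0 in all 6 libraries.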

How the data were processed

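RNA was purified on columns and made into libraries with a SMARTER mRNA kit, per the labels. The FPKM values were deposited by the authors in 1 table with gene lengths and biotypes; the build is mm10 per the submitters' processing notes. No aligner, counting tool or strand setting is given in the sources used here. FPKM times gene length gave whole multiples of 1 step per library (100% of values within 0.01 of a whole read), from which reads were recovered. The step totals put listed reads at 98.4% of the implied library total throughout si-NC. For si-CDCP1 the shares were higher: 99.9% (replicate 1), 99.9% (replicate 2) and 104% (replicate 3). A share above 100% means that the implied total of replicate 3 falls short of its listed reads. FPKM and voom both rest on these totals, so the split by group enters both. No alternative scaled the libraries by listed reads, but 3 alternatives reset the level of each library in other ways. At an unadjusted p under 0.05 in limma, median log ratio scaling gave 5 of the 48 genes lower and 2 higher. Quantile normalisation gave 6 and 2, and equal FPKM sums 6 and 1. The median log2 differences of the 48 were then -0.04, -0.08 and -0.08. The part of the totals alone was not tested.

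The comparison of si-CDCP1 with si-NC used limma 3.58.1 (R 4.3.3) on log2(FPKM + 1), with an intensity trend, two-sided, over 12080 genes (mean FPKM 1 or more), with BH adjustment over all of them at 0.05. Log2 differences are on that scale, which understates changes of low genes. No replicates were duplicates (chi-square per degree of freedom at least 2.98 for each pair, on reads). Voom kept genes reaching 10 reads in 3 libraries, with implied totals as library sizes; the length trend was removed by lowess (span 0.3). The fit was tested on simulated data.

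The 48 genes and the other lists were chosen with earlier results of these data known. Values in every library are given for genes at an unadjusted p under 0.05, the smallest p of each role and a fixed set; of each other list up to 4 genes by p, and Cdkn1a, Cdkn1b and Rb1, are named. Ratios of genes and genes singled out in 1 library were chosen after the values were seen. No sequences were used here.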

Additional observations from a re-analysis of the deposited data

How the results depend on the processing

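The number of genes called over the whole table was 0 in the main comparison and stayed at 5 or fewer except in 3 settings. It was 1 with median log ratio scaling, equal FPKM sums, the replicate number as a block, and the block with the length trend removed; 2 with protein-coding genes or quantile normalisation; 3 with the length trend removed; 4 with a filter of 5 FPKM; 5 with voom; 7 with no filter; 865 with library weights; and 493 with voom without si-CDCP1 replicate 3. Leaving out 1 library in turn gave 0 to 1. Of the 48 genes, 5 were called with library weights and 4 with voom without si-CDCP1 replicate 3, and 0 under each of the other 19 alternatives.

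The 5 genes lower at an unadjusted p under 0.05 became 3 with no filter or no intensity trend and 9 with library weights, and 3 to 8 with 1 library left out (3 without si-NC replicate 1 or si-CDCP1 replicate 2, 8 without si-CDCP1 replicate 1). The 3 higher became 1 with equal FPKM sums, 6 with library weights and 7 with voom without si-CDCP1 replicate 3, and 1 to 6 with 1 library left out (1 without si-NC replicate 1 or 2 or si-CDCP1 replicate 2, 6 without si-CDCP1 replicate 3). The other 3 lists together had 13 genes at that level, 20 with equal FPKM sums or voom, 30 with library weights and 24 with voom without si-CDCP1 replicate 3, and 6 to 20 with 1 library left out (6, 8 and 8 without si-NC replicate 1, 2 or 3, 20 without si-CDCP1 replicate 3). The cause of these moves was not tested.

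Over all tested genes the split at an unadjusted p under 0.05 was 1080 higher and 642 lower, but 790 and 798 with quantile normalisation and 537 and 1301 with equal FPKM sums. With the replicate number as a block, 5 of the 48 genes were lower and 4 higher at that level. Same-numbered libraries had deviations correlated at -0.02, 0.03 and 0.02, so the number was not treated as a pairing. The median of the 48 genes lay between -0.08 and 0.00 over the 21 alternatives. The sign of a gene differed from the main one 74 times over the 48 genes and 21 alternatives, once for a gene at an unadjusted p under 0.05 (Mcm2, quantile normalisation).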
